A study of Mus musculus with 4 samples.

Results

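The immediate early and heat shock genes examined here were *Fos*, *Fosb*, *Jun*, *Junb*, *Egr1*, *Atf3*, *Ier2*, *Dusp1*, *Hspa1a* and *Hspa1b*. They are 10 of the 23284 genes counted, and were chosen by name as a readout of the stress of dissociating and sorting cells. All 10 passed the filter on low counts. RNA was sequenced from Osr1+ cells of C57BL/6J mouse limbs at E13.5, from 2 embryos with Osr1 GCE/+ and 2 with Osr1 GCE/GCE. The GCE allele is a knock-in at *Osr1* that carries GFP with CreERT2, so the controls also carry it on 1 allele and have 1 intact copy of *Osr1*. Limbs were minced and digested with collagenase in the warmth, and the GFP+ cells were sorted by FACS into lysis buffer. The methods give the same protocol for both genotypes, but do not say whether the samples were dissociated or sorted together. Neither tissue lysed without dissociation nor unsorted cells were compared here. What the genes expressed in the embryo and what handling added cannot be told apart from these levels.

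Immediate early genes are transcribed within minutes of a stimulus, from factors already present in the cell and without new protein synthesis. Growth factors, stretch, wounding and the warm enzymatic digestion of a tissue are known to induce them. Fos and Jun proteins pair through leucine zippers to form the AP-1 transcription factor. *Egr1* encodes a zinc finger factor, *Atf3* a stress-induced partner of the same zipper family, *Ier2* a small nuclear protein, and *Dusp1* a phosphatase that switches off MAP kinases. *Hspa1a* and *Hspa1b* encode the inducible HSP70 chaperone and are switched on by heat shock factor 1 when proteins unfold.

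In the count files, *Osr1* had 81.9 and 79.1 CPM, the counts scaled to a fixed library total, in GCE/+ replicates 1 and 2, and 11.9 and 13.9 CPM in GCE/GCE replicates 1 and 2, so it followed the labels (log2 fold change -2.64, SE 0.11, adjusted p = 5.94e-05 by the quasi-likelihood F test of edgeR, adjusted after Benjamini and Hochberg). Counts per sample summed to between 52121596 and 61402140. Of 11 limb mesenchyme markers, 11 were tested, with 3 positive and 8 negative log2 fold changes. Of these, edgeR called 1, *Osr1* (1.82% of all tested genes were called). Another tool, DESeq2, called 6, against 3.45% of the genes to which it gave an adjusted p. Their sum was 16084 and 14632 CPM in GCE/+ and 13611 and 11983 CPM in GCE/GCE replicates 1 and 2. GCE/GCE replicate 1 stood apart in *Xist*, the RNA of the inactive X chromosome, with 1142 CPM against 2.63 CPM or less elsewhere. Summed over 15 macrophage markers, the level was 391 and 394 CPM in GCE/+ and 245 and 172 CPM in GCE/GCE samples, with none at 0 in a sample and 11 called lower. In this bulk RNA, fewer cells of a type and less RNA per cell cannot be told apart.

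Promoter sequences were taken from RefSeq (GRCm38.p6) for 8 of the 10 genes. Those of *Egr1* and *Ier2* were not examined here, so the counts of promoters below leave both genes out. *Fos* and *Dusp1* are shown because they hold the classical cAMP response element or its core, and *Hspa1a* and *Hspa1b* because the pair is nearly identical up to the start site. Each is given 5' to 3' on the strand of the gene, from 250 bases before the start site to 1 base before it. These are chr12:85473640-85473889 (+) for *Fos*, chr17:26508473-26508722 (-) for *Dusp1*, chr17:34972157-34972406 (-) for *Hspa1a* and chr17:34959239-34959488 (-) for *Hspa1b*. Capitals mark TGACG and TATAAA in *Fos*, TGACGTCA in *Dusp1*, and in the HSP70 pair the match to GAANNTTC and the CCAAT box, which reads ATTGG on this strand.
Fos: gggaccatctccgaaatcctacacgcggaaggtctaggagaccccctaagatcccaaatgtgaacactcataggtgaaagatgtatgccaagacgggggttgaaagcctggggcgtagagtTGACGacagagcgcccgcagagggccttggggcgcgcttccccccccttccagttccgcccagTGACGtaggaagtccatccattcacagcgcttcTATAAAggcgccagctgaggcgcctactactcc
Dusp1: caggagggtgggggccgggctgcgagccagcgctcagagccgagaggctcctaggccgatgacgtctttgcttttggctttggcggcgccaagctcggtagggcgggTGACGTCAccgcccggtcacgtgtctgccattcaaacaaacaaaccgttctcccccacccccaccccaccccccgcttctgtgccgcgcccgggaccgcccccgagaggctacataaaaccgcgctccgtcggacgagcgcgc
Hspa1a: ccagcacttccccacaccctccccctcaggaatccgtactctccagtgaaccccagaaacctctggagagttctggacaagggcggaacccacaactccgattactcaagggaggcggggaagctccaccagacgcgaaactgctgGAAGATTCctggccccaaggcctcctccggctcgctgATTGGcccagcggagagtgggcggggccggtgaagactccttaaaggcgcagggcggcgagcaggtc
Hspa1b: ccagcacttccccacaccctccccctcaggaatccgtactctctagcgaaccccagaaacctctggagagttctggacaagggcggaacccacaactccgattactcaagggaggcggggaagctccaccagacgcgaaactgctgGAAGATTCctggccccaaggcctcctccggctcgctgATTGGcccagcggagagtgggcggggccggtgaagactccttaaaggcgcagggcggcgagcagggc

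Counted back from the start site, TGACG began at -129 and -66 in *Fos* and TATAAA at -33. The full TGACGTCA of *Dusp1* began at -143. In both HSP70 promoters GAANNTTC began at -104 and the CCAAT box at -67, and 247 of 250 positions (98.8%) were the same. Searched on both strands, TGACG lay in 5 of 8 promoters (*Fos*, *Fosb*, *Junb*, *Atf3* and *Dusp1*), against 17.8% of 32851 windows of the same length. TGACGTCA, which contains TGACG on both strands, lay in *Dusp1* alone among the 8 and in 1.55% of windows. GAANNTTC, an inverted pair of the GAA units that heat shock factor 1 binds, lay in *Jun*, *Hspa1a* and *Hspa1b* and in 6.69% of windows, and its other arrangement TTCNNGAA in none of the 8 and in 7.17% of windows. CCAAT lay in 4 of 8 (33.8% of windows), the GC box GGGCGG in 7 of 8 (32.7%) and TATAAA in 1 of 8 (12.4%). The AP-1 site TGANTCA and the CArG box that serum response factor binds lay in none of these 8 windows, against 6.75% and 1.47% of all windows. A longer variant of the AP-1 site, TGACATCA, lies in the *Jun* window and was not part of the search. Sites more than 250 bases before the start, and any site of *Egr1* or *Ier2*, were not searched. The genes may therefore hold such sites elsewhere.

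The genes differed widely in level, with the AP-1 genes *Fos*, *Fosb* and *Jun* and with *Egr1* at the top and the HSP70 pair at the bottom in every sample. Their summed level was 8491 and 6705 CPM in GCE/+ replicates 1 and 2, and 8342 and 6542 CPM in GCE/GCE replicates 1 and 2. This was 0.854%, 0.673%, 0.829% and 0.652% of all counts. *Fosb* ranked 14, *Fos* 25, *Egr1* 33 and *Jun* 66 among all genes by mean CPM. *Atf3*, *Dusp1*, *Ier2* and *Junb* ranked from 665 to 948, and *Hspa1a* and *Hspa1b* 6068 and 7104. The median tested gene had 21.3 CPM. CPM is not corrected for transcript length, and per length (TPM, which scales counts per exonic base to a fixed total, with lengths from a GRCm38 annotation) *Fos* came first with a mean of 2372 TPM, before *Fosb* with 1798 TPM. Values of *Fos* in the 4 samples (2104 to 2612 TPM) did not overlap those of *Fosb* (1563 to 1963 TPM). *Egr1* (833 to 1230 TPM) and *Jun* (819 to 1057 TPM) overlapped each other, and so did *Ier2*, *Atf3*, *Junb* and *Dusp1*, between 260 and 485 TPM. *Hspa1a* (24.0 to 39.9 TPM) and *Hspa1b* (18.3 to 32.1 TPM) were lowest. Of the 50-base stretches of their transcripts, 66.3% and 62.3% also occurred in another gene, so the levels and ranks of this pair are uncertain. For comparison, *Hspa8*, the constitutive HSP70 gene, chosen after its values were seen, had a mean of 5612 TPM.

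**Figure D1:**
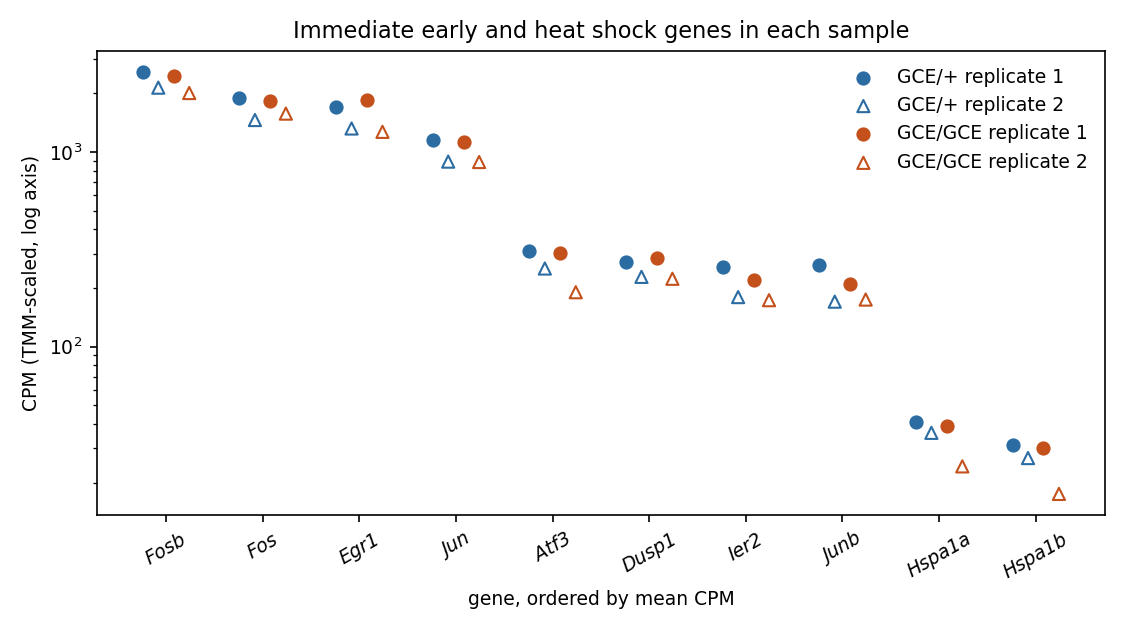
CPM of each gene in each of the 4 samples (vertical log axis), with genes ordered by mean CPM, GCE/+ in blue, GCE/GCE in orange, replicate 1 as filled circles and replicate 2 as open triangles. Both circles lie above both triangles for all 10 genes, while the colours overlap.

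None of the 10 genes differed between the genotypes in the test. Of all 15645 genes tested, 1.82% passed the threshold of 0.1 on the adjusted p of edgeR (0.895% higher and 0.927% lower), and 0 of the 10 did, with 0 of 10 under an unadjusted p of 0.05 against 10.5% of all genes. DESeq2 also called 0 of 10 and 3.45% of the genes to which it gave an adjusted p. The lowest adjusted p was 0.754 with edgeR and 0.885 with DESeq2, both for *Hspa1a*. The median log2 fold change of the 10 was -0.12, and that of all tested genes 0.00. GCE/GCE and GCE/+ values overlapped for all 10, whereas 38.4% of all genes had groups that did not overlap. This overlap follows by necessity from the order by replicate number given below, and is not a separate result. The 95% intervals of the 10 lay between 0.578-fold and 1.40-fold, so the test left room for changes of that size in either direction. The smallest p of an exact two-sided permutation test of 2 samples against 2 is 0.333, and the edgeR test borrows its spread across genes.

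The Fos family members did not differ between the genotypes beyond the spread of their replicates. *Fos* had 1886 and 1460 CPM in GCE/+ and 1837 and 1574 CPM in GCE/GCE replicates 1 and 2. The highest and the lowest value were both those of GCE/+ samples. Its log2 fold change was 0.03 (SE 0.16, 95% interval -0.33 to 0.39, edgeR adjusted p = 0.985). *Fosb*, whose protein can replace Fos in AP-1, had 2581 and 2141 CPM in GCE/+ and 2455 and 2009 CPM in GCE/GCE samples. Its groups overlapped as well, with a log2 fold change of -0.08 (SE 0.16, interval -0.45 to 0.29, edgeR adjusted p = 0.955). Within the family, *Fos* made up 52.2% to 55.7% of the TPM, *Fosb* 39.6% to 42.7%, the later-acting *Fosl2* 3.74% to 5.01% and *Fosl1* under 0.1%.

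The Jun members did not differ beyond the spread of their replicates either. *Jun*, the main AP-1 partner of Fos, had 1147 and 892 CPM in GCE/+ and 1124 and 888 CPM in GCE/GCE replicates 1 and 2. Both replicates 1 were high and both replicates 2 low, and the log2 fold change was -0.02 (SE 0.16, interval -0.38 to 0.34, edgeR adjusted p = 0.990). *Junb*, a Jun relative with weaker activation, had 262 and 170.1 CPM in GCE/+ and 209.8 and 174 CPM in GCE/GCE samples. The GCE/+ samples enclosed the GCE/GCE samples, with a log2 fold change of -0.17 (SE 0.18, interval -0.59 to 0.25, edgeR adjusted p = 0.881). Without GCE/+ replicate 2, *Junb* was called lower in GCE/GCE (log2 fold change -0.45, edgeR adjusted p = 0.0816), in a fit that called 1.98% of all genes lower. *Jun* made up 56.4% to 60.3% of the TPM of the Jun family, *Junb* 19.8% to 22.7% and *Jund* 19.8% to 21.4%. Of the 50-base stretches of the *Jun* transcript, 5.83% also occurred in *Junos*, an antisense gene, and the library kit did not keep the strand.

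*Egr1* had 1705 and 1320.4 CPM in GCE/+ and 1839 and 1269 CPM in GCE/GCE replicates 1 and 2. The GCE/GCE samples enclosed the GCE/+ samples, and the log2 fold change was 0.04 (SE 0.19, interval -0.41 to 0.48, edgeR adjusted p = 0.984). *Ier2* had 257 and 179.5 CPM in GCE/+ and 219.9 and 173 CPM in GCE/GCE samples (log2 fold change -0.15, SE 0.17, edgeR adjusted p = 0.891). *Dusp1*, the feedback phosphatase, had 273 and 228 CPM in GCE/+ and 286 and 223 CPM in GCE/GCE samples (log2 fold change 0.02, SE 0.13, edgeR adjusted p = 0.989). Both genes had their replicates 1 high and replicates 2 low.

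For *Atf3* and the HSP70 pair, GCE/GCE replicate 2 was the lowest sample, as it was for *Fosb*, *Jun*, *Egr1*, *Ier2* and *Dusp1*. *Atf3* had 309 and 252 CPM in GCE/+ and 303 and 190.2 CPM in GCE/GCE replicates 1 and 2 (log2 fold change -0.18, SE 0.20, interval -0.63 to 0.26, edgeR adjusted p = 0.878). *Hspa1a* had 41.2 and 36.0 CPM in GCE/+ and 39.2 and 24.2 CPM in GCE/GCE samples (log2 fold change -0.28, SE 0.20, interval -0.73 to 0.17, edgeR adjusted p = 0.754). *Hspa1b* had 31.3 and 26.7 CPM in GCE/+ and 29.9 and 17.5 CPM in GCE/GCE samples (log2 fold change -0.29, SE 0.22, interval -0.79 to 0.21, edgeR adjusted p = 0.778). GCE/GCE replicate 1 lay between the GCE/+ samples for all 3 genes. Without that sample, edgeR called all 3 lower, with log2 fold changes of -0.57 for *Atf3* (adjusted p = 0.0102), -0.68 for *Hspa1a* (adjusted p = 0.00234) and -0.74 for *Hspa1b* (adjusted p = 0.00169), in a fit that called 2.87% of all genes lower. The size of their difference therefore depended on which GCE/GCE sample was counted.

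**Figure D2:**
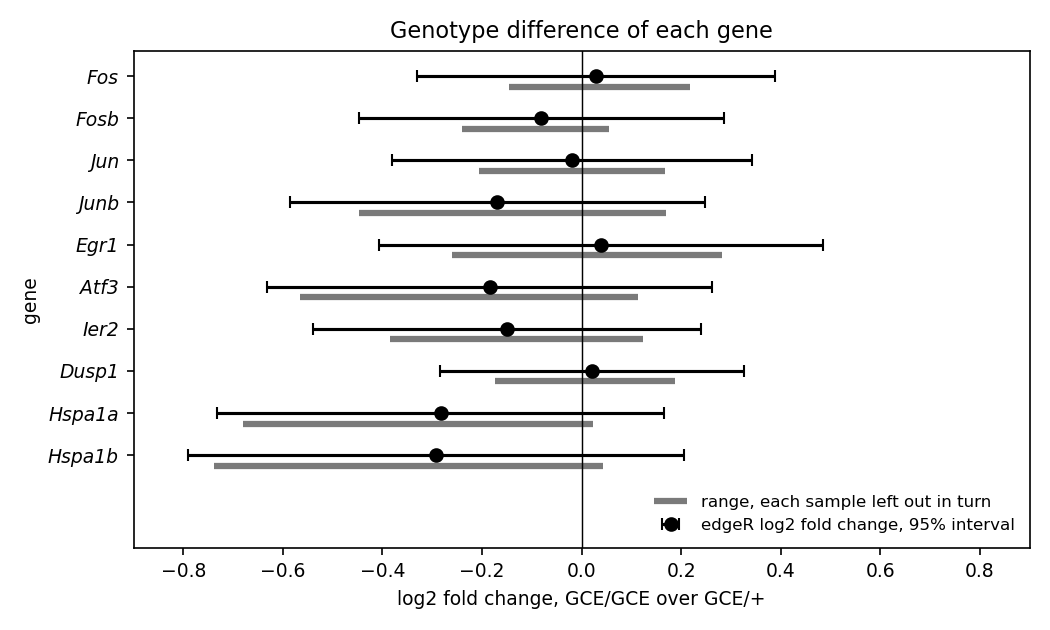
Log2 fold change of GCE/GCE over GCE/+ (horizontal axis) for each gene, with the edgeR estimate as a point, its 95% interval as a black line and the range over the fits without each sample in turn as a grey bar. All 10 intervals and all 10 ranges include 0, and the ranges of *Atf3*, *Hspa1a* and *Hspa1b* reach lowest.

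*Hspa1a* and *Hspa1b* are neighbours on chromosome 17, at chr17:34969359-34972156 and chr17:34956429-34959238 of GRCm38, with 10120 bases between them and both on the minus strand. Of their 50-base transcript stretches, 66.3% and 62.3% also occurred in another gene, 1716 of them in each other. *Hspa1a* also overlaps *Gm20481* on the opposite strand over 564 exonic bases. The levels of each are therefore uncertain. *Hspa1a* took 56.8% and 57.4% of the counts of the pair in GCE/+ and 56.7% and 58.1% in GCE/GCE samples, with overlapping 95% exact binomial intervals that cover counting error only. Summed as 1 gene, they gave a log2 fold change of -0.29 (edgeR adjusted p = 0.757). The coding genes *Jun*, *Junb*, *Ier2*, *Hspa1a* and *Hspa1b* have 1 exon in every basic transcript, so 5 of the 10 lack introns, against 6.29% of 21951 protein-coding genes. *Junb* (chr8:84976909-84978748) and *Ier2* (chr8:84661331-84662852) lie on the same chromosome, 314056 bases apart. *Fos* is at chr12:85473890-85477274, *Fosb* at chr7:19302696-19310118, *Jun* at chr4:95049036-95052222, *Atf3* at chr1:191170296-191183333 and *Dusp1* at chr17:26505591-26508472, all in GRCm38.

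All 10 genes were ordered by replicate number rather than by genotype. Both samples numbered 1 were above both numbered 2 for 10 of 10 genes, against 14.1% of all tested genes, with another 14.1% the other way round. The numbers come from the labels, which do not say what a number stands for. The median log2 difference of replicate 1 minus replicate 2 over the 10 genes was 0.33 in GCE/+ and 0.35 in GCE/GCE samples, and 0.00 over all genes in both. It ranged from 0.19 for *Hspa1a* in GCE/+ to 0.78 for *Hspa1b* in GCE/GCE samples. In GCE/+ samples it was largest for *Junb* (0.62) and *Ier2* (0.52). In GCE/GCE samples it was largest for *Hspa1b*, *Hspa1a* (0.70), *Atf3* (0.67) and *Egr1* (0.54), so the order of the genes differed between the genotypes. A difference of at least 0.19 in both genotypes was seen in 5.85% of all genes. This cut-off is the smallest difference among the 10 genes, so all 10 reach it by construction. Each of the 20 differences had a 95% interval for counting error that excluded 0, but there is 1 sample on each side, and they have no replicate test. For 8 of 10 genes, all but *Hspa1a* and *Hspa1b*, the difference between the genotype means was smaller than the replicate difference in either genotype, which held for 39% of all genes.

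**Figure D3:**
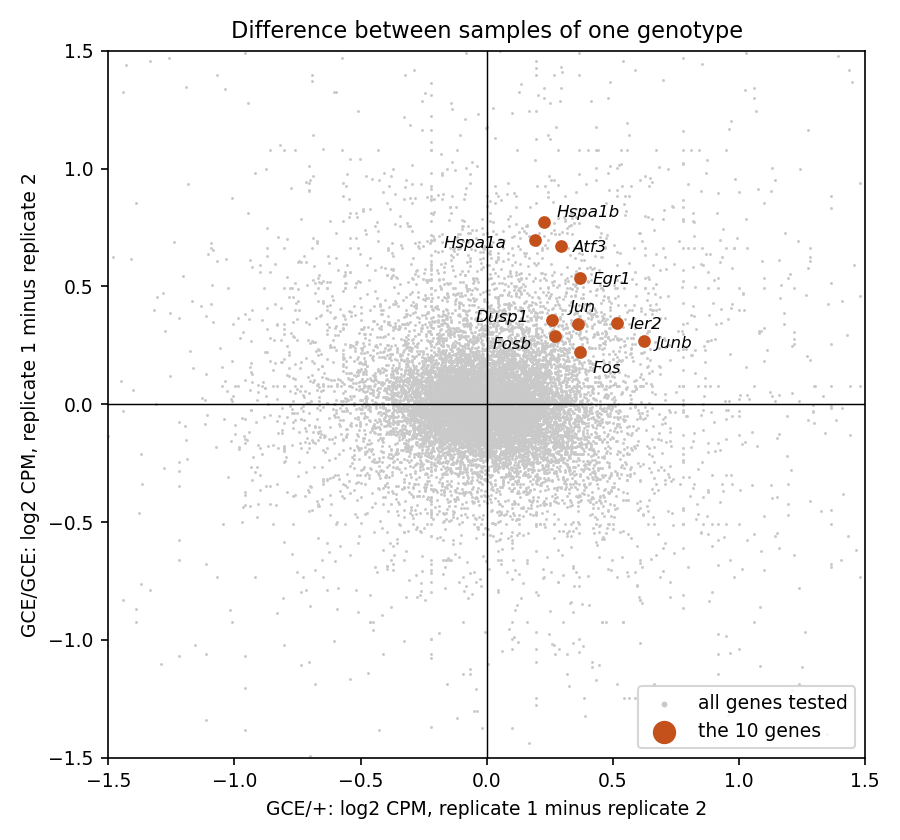
Log2 CPM of replicate 1 minus replicate 2 in GCE/+ (horizontal axis) and in GCE/GCE samples (vertical axis), with all tested genes in grey and the 10 genes in orange. All 10 lie to the upper right of 0, while the grey cloud is centred near 0, and 202 of 15637 genes lie outside the plotted window.

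Other measurements differed between the numbered samples as well. Summed over 9 endothelial markers, all tested and none at 0, the level was 125.6 and 100.04 CPM in GCE/+ and 100.7 and 83.3 CPM in GCE/GCE replicates 1 and 2, and 4 of 9 markers had both replicates 1 above both replicates 2. The part of this in the replicate difference was not tested. For the 15 macrophage markers, the median replicate difference was 0.02 in GCE/+ and 0.54 in GCE/GCE samples, and 0 of 15 had both replicates 1 on top. All 15 had a negative log2 fold change. Genes whose genotype groups do not overlap cannot have both replicates 1 on top, so this count says little about the replicate order. Erythroid markers summed to at most 7.27 CPM, with *Rhag* at 0 in GCE/GCE replicate 1. Sums for muscle markers were 158 to 206 CPM and for epidermal markers 13.9 to 16.5 CPM, and 0 of 9 and 0 of 6 had both replicates 1 on top. Among 7 Schwann and neural markers 4 had, and their sums ran from 24.5 to 34.3 CPM. Cartilage markers, of which 5 of 9 were called higher, summed to 811 and 1214 CPM in GCE/+ and 1753 and 1862 CPM in GCE/GCE samples. Of 5 tendon markers, 3 were called higher. Transcript length was related to the replicate difference across genes (Spearman's rho -0.446 in GCE/+ and 0.153 in GCE/GCE samples, over 15482 genes that are not independent), with opposite signs. Over the 8654 genes of the same length as the 10 (1522 to 4484 bases), the median replicate difference was 0.03 and -0.01.

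Of 42 other immediate early genes, 0 were called by edgeR or by DESeq2, and 6 had an unadjusted edgeR p under 0.05. Their median log2 fold change was -0.06. The most abundant were *Nr4a1*, an orphan nuclear receptor, with 1587 and 1334 CPM in GCE/+ and 1665 and 1291 CPM in GCE/GCE samples, *Klf6* with 738 to 992 CPM and *Klf4* with 669 to 811 CPM. The Krüppel-like factor *Klf9* had the largest log2 fold change, 0.32 (edgeR adjusted p = 0.398), and was called higher without GCE/+ replicate 2 (adjusted p = 0.0524). Both replicates 1 were above both replicates 2 for 24 of 42, including *Nr4a1*, and the reverse held for 2. The median replicate difference was 0.09 in GCE/+ and 0.16 in GCE/GCE samples, against 0.33 and 0.35 in the 10 genes.

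Of 11 other AP-1 genes, which include the later-acting *Fosl2* and the more constant *Jund*, 3 had both replicates 1 on top and 1 had both replicates 2 on top. Their median log2 fold change was -0.11, and the median replicate difference was 0.07 in GCE/+ and 0.19 in GCE/GCE samples.

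In the signalling genes around the 10, both replicate orders occurred. Of 10 MAP kinase phosphatases other than *Dusp1*, 0 were called by edgeR or DESeq2 and 2 had an unadjusted edgeR p under 0.05. *Dusp6*, a MAP kinase phosphatase of the cytoplasm, was level at 149.8 and 152.6 CPM in GCE/+ and 154.4 and 152.4 CPM in GCE/GCE samples. None of the 10 had both replicates 1 on top, and 2 had both replicates 2 on top. *Dusp16* lay between 103 and 123 CPM and *Dusp8* between 67.8 and 97.0 CPM. The largest log2 fold change was that of *Dusp2*, -0.44 (edgeR adjusted p = 0.254). Of 21 upstream kinases and factors, 20 were tested and 0 called by either tool, with 0 at an unadjusted edgeR p under 0.05. Both replicates 1 were on top for 6 of the 20 and both replicates 2 for 8, against 14.1% of all tested genes for each order. *Atf2* (107 to 121 CPM) and the JNK kinase gene *Map2k4* (104 to 112 CPM) had narrow ranges. *Elk4*, a partner of serum response factor, had the largest log2 fold change, 0.36 (edgeR adjusted p = 0.731), with 17.2 CPM in GCE/+ replicate 1 and 30.5 to 32.2 CPM in the other samples, and it was called higher without GCE/+ replicate 2 (adjusted p = 0.0113).

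Of 37 other heat shock genes, 0 were called higher by edgeR or DESeq2. Both replicates 1 were on top for 9 of 37 and both replicates 2 for 5. Their median log2 fold change was -0.03, and the median replicate difference was 0.06 in GCE/+ and 0.09 in GCE/GCE samples, against 0.33 and 0.35 in the 10 genes.

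Of 18 genes of the integrated and endoplasmic reticulum stress responses, 0 were called by edgeR or DESeq2, with 0 at an unadjusted edgeR p under 0.05. *Hspa5*, the HSP70 of the endoplasmic reticulum, had 2148 and 2012 CPM in GCE/+ and 1889.7 and 1877 CPM in GCE/GCE samples, and *Hsp90b1* 1378 to 1536 CPM. *Atf4*, the transcription factor of the integrated stress response, had 522 and 432 CPM in GCE/+ and 497 and 402 CPM in GCE/GCE samples, in the replicate order of the 10 genes. The largest log2 fold change was -0.34, for *Sdf2l1* (edgeR adjusted p = 0.606), which was called lower without GCE/+ replicate 2 (adjusted p = 0.0784). Both replicates 1 were on top for 7 of 18 and both replicates 2 for 0. Of 10 p53 targets, which include *Btg2* of the immediate early list, 0 were called by either tool and 0 had an unadjusted edgeR p under 0.05. *Btg2* had 641 and 585 CPM in GCE/+ and 706 and 535 CPM in GCE/GCE samples, in the replicate order of the 10 genes, as had *Plk2* (170.3 to 206 CPM). *Mdm2*, the ligase that degrades p53, had 123.8 to 126.6 CPM. *Cdkn1a*, the p21 cell cycle inhibitor, had the largest log2 fold change, -0.29 (edgeR adjusted p = 0.482), and was called lower without GCE/GCE replicate 1 (adjusted p = 0.0716).

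Of 12 oxidative and metal stress genes, edgeR called 1 higher and 2 lower, against 0.895% and 0.927% of all tested genes. *Hmox1*, which degrades haem and is abundant in macrophages, fell from 95.6 and 76.8 CPM to 53.1 and 45.3 CPM (log2 fold change -0.81, SE 0.12, edgeR adjusted p = 0.0328). *Slc7a11*, the cystine importer, rose from 5.22 and 6.50 CPM to 12.0 and 14.1 CPM (log2 fold change 1.16, SE 0.16, edgeR adjusted p = 0.0276). *Mt1*, a metallothionein, fell from 10.1 and 9.10 CPM to 5.77 and 5.01 CPM (log2 fold change -0.83, SE 0.15, edgeR adjusted p = 0.0565). The groups did not overlap for these 3. Without GCE/+ replicate 1, *Mt1* was no longer called (adjusted p = 0.151). The macrophage markers fell in the same samples as *Hmox1*, by a median log2 fold change of -0.97, and their part in it was not tested.

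**Figure D4:**
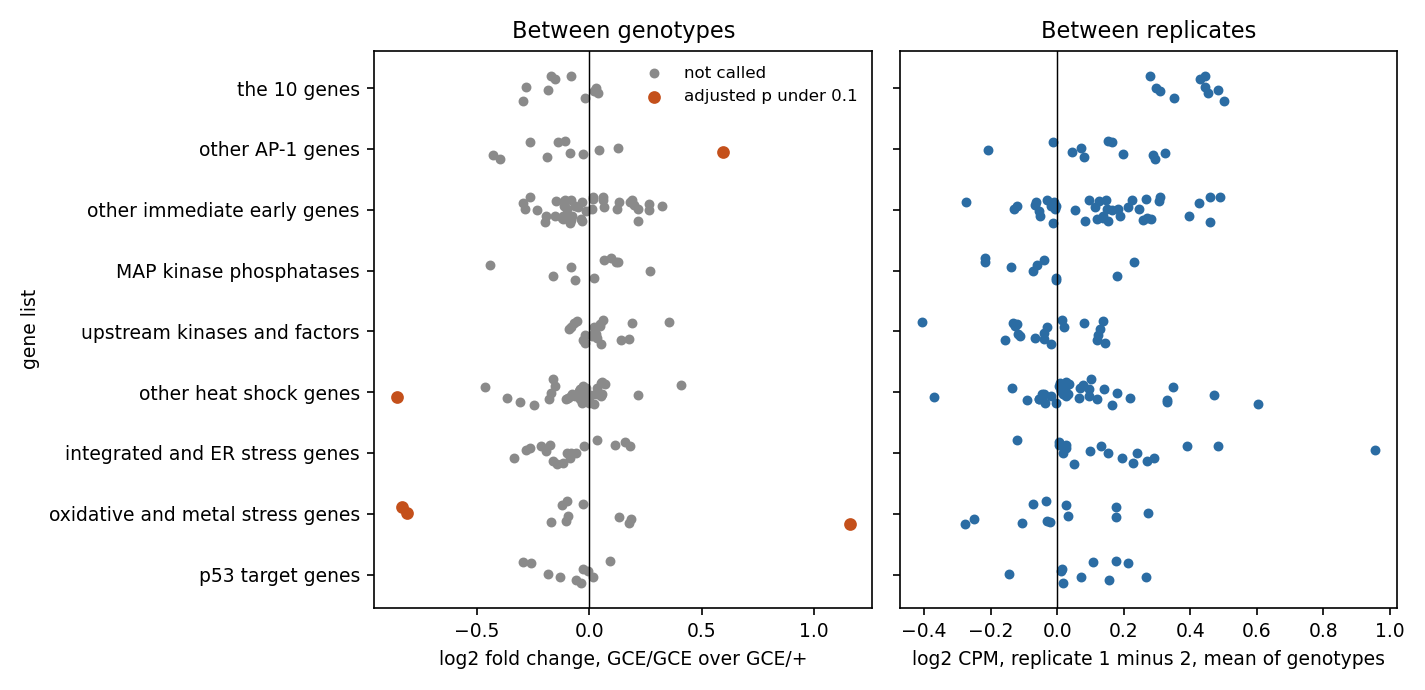
Each point is 1 gene of a list (vertical axis), placed by its log2 fold change of GCE/GCE over GCE/+ on the left, with genes past an adjusted p of 0.1 in orange, and by its log2 CPM of replicate 1 minus replicate 2, averaged over the genotypes, on the right. The 10 genes lie around 0 on the left and all above 0 on the right, and 5 genes of the other lists are orange.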

How the data were processed

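Samples were grouped by the genotype in the labels. The authors sequenced poly(A) RNA without strand information as paired-end reads, aligned them with TopHat2 to mm9 using the gene model of UCSC, and counted fragments with HTSeq in its intersection-strict mode (versions not given in the sources used here). The deposited values are raw counts per gene symbol. Counts were filtered with filterByExpr, scaled by TMM and tested with edgeR 4.0.16 in R 4.3.3 (glmQLFTest, GCE/GCE against GCE/+, two-sided, Benjamini-Hochberg adjustment over 15645 genes, threshold 0.1). DESeq2 1.42.0, the tool of the methods, was run without the filter. SEs were derived from the F statistic. Procedures were tested on simulated data.

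Per sample, 3 counts amount to 0.0489 to 0.0576 CPM. Exonic lengths, exon overlaps and 50-base stretches came from GENCODE on GRCm38.p6, which matched 98.1% of symbols. Gene coordinates and the distances between genes came from RefSeq on GRCm38.p6, and nothing was converted from mm9. TPM used the union of exons.

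The 10 genes and all lists were chosen with earlier results of these data known. Named from other lists were genes past the threshold, otherwise the most abundant, and those with the largest fold change at a mean of at least 1 CPM. Genes most like the 10 had a mean of at least 10 CPM and a log2 range of at least 1. Alternatives were DESeq2, other scalings (RLE, upper quartile, library totals), no filter, at least 10 counts in every sample, a robust fit, an adjusted p of 0.05, the HSP70 pair summed, the replicate number as a block, and leaving out each sample. Figures were drawn with Python 3.11.15 and matplotlib 3.10.9. RT-qPCR, imaging and chromatin data were not analysed here. Values of some genes of the other lists are not reported here.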

Additional observations from a re-analysis of the deposited data

How the results depend on the processing

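Over all genes, 285 passed (140 higher and 145 lower), against 508 with DESeq2, 127 without the filter on low counts and 130 at an adjusted p of 0.05. Leaving out each sample gave 199 to 961, the most without GCE/+ replicate 2 (646 higher and 315 lower), followed by 748 without GCE/GCE replicate 1. These fits leave 1 sample in a genotype, which is assumed to vary like the other 2. Between 0 and 3 of the 10 genes were then called, 3 of them without GCE/GCE replicate 1 and 1 without GCE/+ replicate 2, and 0 under the other scalings, filters, tool and threshold. The calls in the other stress lists went from 5 to between 5 and 12, with 12 without GCE/+ replicate 2 and 11 without GCE/GCE replicate 1. The cause was not tested.

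Each of the 10 genes changed sign in at least 1 of these fits, with log2 fold changes of -0.15 to 0.22 for *Fos*, -0.24 to 0.056 for *Fosb*, -0.21 to 0.17 for *Jun*, -0.45 to 0.17 for *Junb*, -0.26 to 0.28 for *Egr1*, -0.57 to 0.11 for *Atf3*, -0.39 to 0.12 for *Ier2*, -0.17 to 0.19 for *Dusp1*, -0.68 to 0.023 for *Hspa1a* and -0.74 to 0.043 for *Hspa1b*. Their median ran from -0.29 to 0.14, and *Osr1* from -2.76 to -2.54. *Nr4a1* ran from -0.18 to 0.19 and was -0.00110 with upper quartile scaling. *Elk4* ran from -0.030 to 0.87, and was called higher without GCE/+ replicate 2 (edgeR adjusted p = 0.0113). That fit also called *Klf9* higher (0.51) and *Sdf2l1* lower (-0.57), and the fit without GCE/GCE replicate 1 called *Cdkn1a* lower (-0.49). Under the other alternatives no fold change of the 10 changed sign. The median replicate difference of the 10 was 0.32 to 0.36 in GCE/+ and 0.35 to 0.36 in GCE/GCE samples under the other scalings.

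With the replicate number as a block, 290 genes passed, the 10 genes had a median of -0.11 with 0 called, and *Osr1* had -2.64. The labels do not say what a number stands for, and deviations of same-numbered samples had a correlation of -0.00218 over 11179 genes, so the numbers were not used as pairs. Whether same-numbered samples shared a handling step was not tested. The depth was no limit for the 10 genes, whose counts were at least 1070 in every sample.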

Other observations

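Of 117 other genes that reached 10 CPM on average and varied by at least 1 on the log2 scale, 5 followed the mean log2 CPM of the 10 genes over the 4 samples most closely, as a description over 4 libraries without a test. *Abca8a*, a lipid transporter, had 25.3 and 17.6 CPM in GCE/+ and 23.1 and 11.4 CPM in GCE/GCE replicates 1 and 2 (Pearson's r 0.974). *Dpt*, which encodes the matrix protein dermatopontin, had 27.4, 12.5, 23.0 and 12.3 CPM in the same order (r 0.962). *C1qtnf2*, a secreted C1q and TNF related protein, had 14.2, 9.69, 11.7 and 6.34 CPM (r 0.962). *Cav1*, the main protein of caveolae, followed with r 0.909 and *Il4ra*, an interleukin receptor chain, with r 0.803. None of these 5 is an immediate early or heat shock gene. The mean log2 CPM of the 10 genes itself spanned 0.52 on the log2 scale, below the range of 1 by which the other genes were chosen. Genes with so small a span, of the immediate early class or not, could not be among the 5.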
